A study of Mus musculus with 4 samples.

Results

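Mouse embryonic fibroblasts (MEF) and a population on the way to neural stem cells, driven by the reprogramming factors Oct4, Sox2, Klf4 and Myc (OSKM), shared 3991 open chromatin regions that were closed in both pluripotent cell types of the same study. The regions were chosen by their listed ATAC-seq peaks. Peaks of 4 libraries on chromosomes 1 to 19 were pooled and joined where they lay at most 10 bp apart, and a region was kept if it held a MEF and an intermediate peak and neither an iPSC nor an ESC peak. The 3991 kept regions were 2.37% of 168348 regions in all, 6.07% of the 65745 regions open in the intermediate and 5.28% of the 75655 open in MEF. Of the 24440 regions open in both, they made up 16.3%, and of the 47056 MEF regions closed in iPSC and ESC, 8.48%.

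ATAC-seq cuts open DNA with a transposase, and each library came from 50000 cells, with 1 library per group. The intermediate was grown from Nanog-CreER reporter MEFs of strain B6/129 (Rosa26-TdTomato B6 female and Col1a-OSKM 129 male), given doxycycline and 4-hydroxytamoxifen from day 1 to day 9 with 0.5 µM JAK1 inhibitor, and sorted without feeder cells for the tdTomato that a Nanog-driven Cre had switched on. Its title gives day 9 and its source field an earlier day. Induced pluripotent stem cells (iPSC) carried the strain label A12 (Mbd3 flox/-), embryonic stem cells (ESC) were v6.5, and the profiled MEF also had the label A12 (Mbd3 flox/-). The intermediate thus did not descend from the profiled MEF, so "kept" means shared between these 2 cell populations and not followed through time. Strain label and cell state cannot be told apart wherever the intermediate or ESC enters the comparison, while MEF and iPSC had the same label.

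Fibroblast enhancers are held open largely by AP-1 factors (Fos and Jun proteins) together with TEAD factors, the DNA-binding partners of the Hippo pathway's co-activator YAP, and RUNX factors. During reprogramming the OSKM factors bind new sites, and fibroblast enhancers lose their factors and close on the way to pluripotency. Nanog, whose activity the reporter records, is a transcription factor of the pluripotent state.

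The sequences at kept regions are shown here for 6 gene starts, because the letters bound by these factors could be read there. RefSeq promoters (GRCm38.p6, the assembly that mm10 names) gave the 250 bases before each start site. Of 31365 such windows, 181 shared a base with a kept region, and 155 of those lay wholly inside one. The rule for printing asked for a protein-coding gene, a window wholly inside the region with both summits in it, and the AP-1 letters TGANTCA. It was met by 12 genes, and the first 6 by the lower of their 2 height percentiles are given. Capitals mark the letters of AP-1 (TGANTCA), TEAD (GGAATG) and RUNX (TGTGGT) on either strand, and the AP-1 letters read the same on both strands apart from their middle base. Il1rn, which encodes the interleukin-1 receptor antagonist, has its window at chr2:24336610-24336859 on the plus strand. Arhgef10l, a guanine nucleotide exchange factor, lies at chr4:140665888-140666137 on the minus strand. The window of Ifi203, an interferon-inducible gene, is chr1:173942673-173942922 on the minus strand. That of Col6a1, a chain of collagen VI, is chr10:76726045-76726294 on the minus strand. Cyth1, an Arf exchange factor, is at chr11:118212732-118212981 on the minus strand, and Osgin1, an oxidative stress gene, at chr8:119436897-119437146 on the plus strand.
Il1rn: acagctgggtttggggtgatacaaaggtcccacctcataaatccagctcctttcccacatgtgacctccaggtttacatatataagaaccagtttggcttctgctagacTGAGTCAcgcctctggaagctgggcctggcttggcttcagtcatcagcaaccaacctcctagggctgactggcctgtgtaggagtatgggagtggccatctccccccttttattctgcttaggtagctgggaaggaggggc
Arhgef10l: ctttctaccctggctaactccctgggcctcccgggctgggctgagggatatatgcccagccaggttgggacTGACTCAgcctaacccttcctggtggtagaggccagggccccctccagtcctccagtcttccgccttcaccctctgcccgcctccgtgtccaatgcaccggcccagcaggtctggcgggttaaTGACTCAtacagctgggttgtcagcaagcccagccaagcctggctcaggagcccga
Ifi203: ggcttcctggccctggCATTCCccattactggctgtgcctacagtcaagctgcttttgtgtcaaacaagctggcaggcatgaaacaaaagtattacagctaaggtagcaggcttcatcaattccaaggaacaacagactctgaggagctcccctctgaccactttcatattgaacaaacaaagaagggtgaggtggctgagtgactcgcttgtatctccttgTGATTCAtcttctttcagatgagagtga
Col6a1: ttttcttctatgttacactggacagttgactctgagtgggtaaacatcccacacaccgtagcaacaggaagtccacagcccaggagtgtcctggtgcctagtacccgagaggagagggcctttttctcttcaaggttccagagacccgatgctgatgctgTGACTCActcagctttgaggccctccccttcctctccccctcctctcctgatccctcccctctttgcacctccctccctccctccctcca
Cyth1: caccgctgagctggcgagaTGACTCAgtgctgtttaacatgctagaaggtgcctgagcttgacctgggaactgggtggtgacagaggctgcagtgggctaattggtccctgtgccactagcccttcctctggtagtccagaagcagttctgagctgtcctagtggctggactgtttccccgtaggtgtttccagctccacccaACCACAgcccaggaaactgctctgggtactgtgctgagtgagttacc
Osgin1: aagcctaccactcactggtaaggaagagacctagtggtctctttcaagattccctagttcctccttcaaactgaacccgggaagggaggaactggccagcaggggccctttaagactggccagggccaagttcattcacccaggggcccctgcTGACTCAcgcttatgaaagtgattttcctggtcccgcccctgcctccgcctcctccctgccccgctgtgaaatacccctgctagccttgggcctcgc

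The tallest peak over the window had a height of 94 in the intermediate and 75 in MEF at Il1rn. At Arhgef10l the heights were 58 in the intermediate and 53 in MEF, and its window held 2 AP-1 matches. Ifi203 had 48 in the intermediate and 54 in MEF. All 3 stood above the median height of either list, 34 in the intermediate and 30 in MEF. Col6a1 had 45 in the intermediate and 64 in MEF, Cyth1 45 and 44 in the same order, and Osgin1 44 in the intermediate against 146 in MEF. Heights are the authors' unscaled signal and rank peaks only within their own list.

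AP-1 letters stood in 45 of the 181 windows at kept regions, or 24.9% (Wilson 95% interval 19.1 to 31.6), against 6.77% of all 31365 windows. The same letters stood in 12.9% of windows at regions open in the intermediate alone, 9.35% at regions shared by MEF and iPSC only, 8.64% at those shared by MEF and ESC only, and 3.64% at regions open in all 4 libraries. Regions open in MEF alone had 18.8% (16.3 to 21.7), an interval that overlaps the one of the kept regions. The 181 windows at kept regions came from 157 regions, so some share a region, and the interval does not cover this dependence. A scrambled control, TCANGTA, stood in 5.52% of windows at kept regions and 6.35% of all windows. Where both summits lay in the window, 19 of 52 held AP-1 letters (36.5%), where 1 summit did 14 of 51 (27.5%), and where neither did 12 of 78 (15.4%). The 21 matches in windows with both summits lay a median of 67 bp from the intermediate summit and 38 bp from the MEF summit. Match and summits had to lie in the same short window, which by itself keeps these distances small. Neither the distances nor the shares by summit were set against a random placement or another class of region. Whether AP-1 letters centre on the summits was thus not tested. Among MEF windows closed in iPSC and ESC, 23% of those with AP-1 letters and 17.3% of those without were kept, with overlapping intervals of 17.6 to 29.3 and 14.8 to 20.1.

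TEAD letters were in 18.2% of windows at kept regions, 18.3% at regions open in MEF alone and 3921 of all 31365 windows. RUNX letters were in 16.6% at kept regions, 22.4% at MEF alone and 14% of all. ETS letters (CCGGAA) stood in 4.42% of windows at kept regions, against 22.7% at regions open in all 4 and 12.2% of all. The octamer ATGCAAAT, the letters of Oct4, was in 0 of 181 windows at kept regions, which allows a share of up to 1.66% taken as 3 counts (Wilson upper bound 2.08%), and in 1.62% of all windows. Windows at kept regions had a median GC content of 51.2% with 4 CpG dinucleotides, against 50% with 3 at MEF alone and 61.6% with 17 at regions open in all 4. What part base composition has in the motif shares was not tested, and a letter match is not a bound site.

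**Figure D1:**
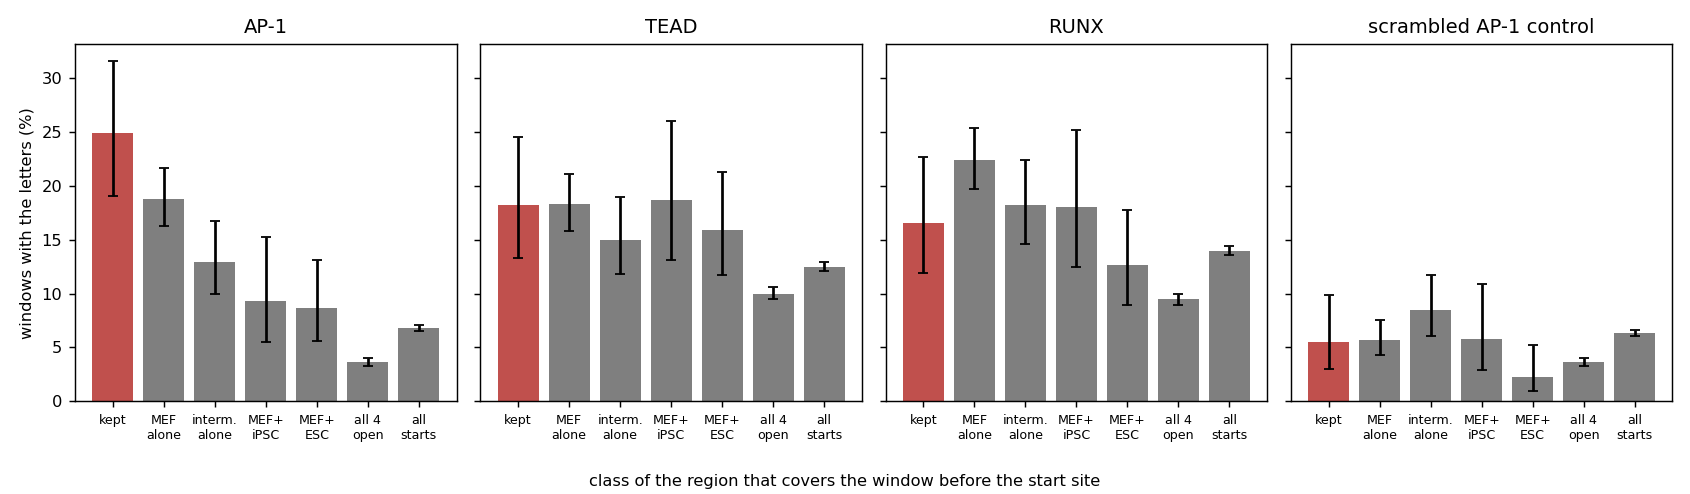
Share of 250-base windows before RefSeq start sites (y axis, %) that hold the letters of AP-1, TEAD, RUNX or a scrambled control, by the class of region that covers the window (x axis). Bars are shares and lines Wilson 95% intervals. The AP-1 bar of the kept regions stands at 24.9%, above 3.64% at regions open in all 4 libraries, and the scrambled control at 5.52%.

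The 4 lists were of like size on the autosomes, with 130631 peaks in the intermediate, 128931 in iPSC, 125858 in ESC and 155064 in MEF. Median heights were 34, 39, 31 and 30 in that order, the read depth behind them is unknown, and a region without a listed peak is called closed. The label was checked with gene ends. All 10 defining fibroblast markers had a MEF peak within 1 kb of a gene end, 5 had one in the intermediate, which lacked Col3a1, Pdgfra, Pdgfrb, Postn and Twist2, and 6 did in iPSC and 8 in ESC. Of 5 pluripotency markers, 3 had such a peak in the intermediate, against 1 in MEF, 4 in iPSC and 4 in ESC. More fibroblast markers had a gene-end peak in ESC than in the intermediate, so this check does not settle the labels. In a cell population, open chromatin in few cells and weaker opening in many cannot be told apart.

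Among MEF regions closed in iPSC and ESC, 8.48% were open in the intermediate (3991 of 47056, 8.23 to 8.74). This is the number that chose the regions, and it is given as a background and not a finding. The same share was taken for the 2 pluripotent libraries. Of MEF regions closed in the intermediate and ESC, 4.99% were open in iPSC (4.8 to 5.2), and of those closed in the intermediate and iPSC, 4.83% were open in ESC (4.64 to 5.03). These 3 shares come from the patterns that the rule used, and the last 2 leave out the 3700 regions that MEF shared with both iPSC and ESC, so they are not compared. Seen from the other side, 13.9% of intermediate regions closed in iPSC and ESC were open in MEF.

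Taller MEF peaks were shared more often. MEF regions closed in iPSC and ESC were split into 4 equal groups by height. In the lowest group 5.24% were open in the intermediate, in the following groups 7.3% and 8.76%, and in the tallest 12.6% (12 to 13.2). Width moved the same way, at 4.18%, 6.8%, 8.86% and 14.1%. Widths differed within heights as well. In the tallest group the kept share was 16% of the widest and 6.61% of the narrowest regions, and in the lowest group 9.38% and 3.1%. A wider region has more bases in which a peak can be listed. Within 1 kb of a start site 12.9% were kept (11.5 to 14.5), at 1 to 10 kb 10.8%, at 10 to 100 kb 8.36% and farther away 5.03%. Start sites on chromosome 18 were not used here. By chromosome the share ran between 6.59% on chromosome 9 and 10% on chromosome 19.

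**Figure D2:**
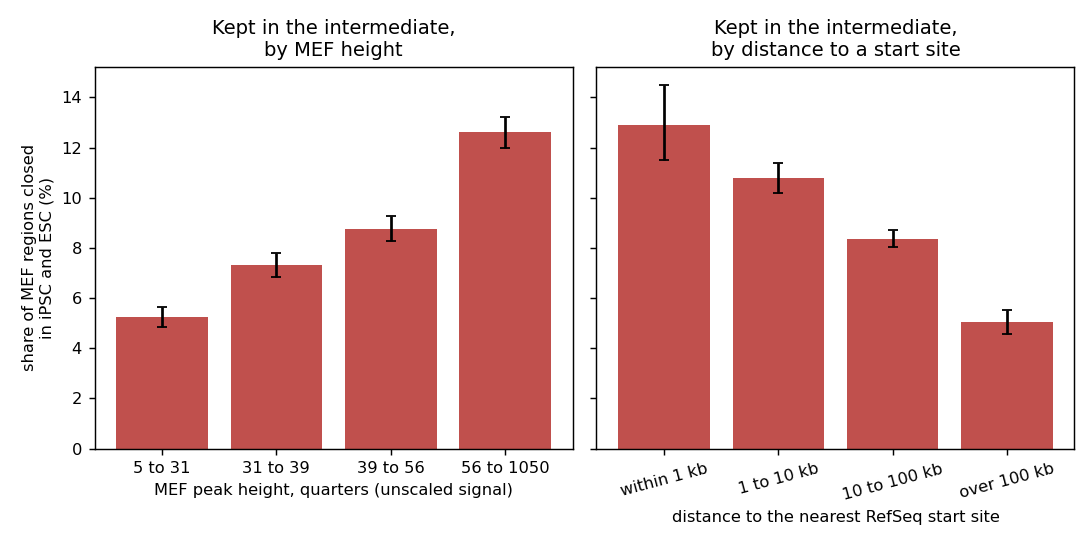
Share of MEF regions closed in iPSC and ESC that were open in the intermediate (y axis, %, bars with Wilson 95% intervals), by 4 equal groups of unscaled MEF height (left) and by distance to a start site (right). The share is 12.6% in the tallest group and 5.24% in the lowest, and 12.9% within 1 kb of a start site and 5.03% beyond 100 kb.

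Most kept regions lay away from gene ends. Within 1 kb of a gene end were 606 (15.2%, 14.1 to 16.3), in a gene body farther in 1986 (49.8%) and between genes 1399 (35.1%), so that 84.8% were distal. Distal shares were 89.7% for regions open in the intermediate alone and for those open in MEF alone, 84% and 76.2% for those MEF shared only with iPSC and only with ESC, and 34.5% for regions open in all 4. Kept regions had a median width of 1090 bp, against 990 bp for those MEF shared with iPSC only, 960 bp for those it shared with ESC only, 740 bp in either single library and 1650 bp where all 4 were open. A region joined from more lists is wider by construction. The shared stretch was nearly whole, with a median of 96.4% of the shorter side covered in common, and 14 of the 3991 regions shared no base between the 2 libraries. The summits of the tallest peaks lay a median of 90 bp apart, and 54.2% within 100 bp (52.6 to 55.7), against 70.9% at regions open in all 4 libraries.

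The tallest peak of a kept region had a median height of 45 in the intermediate (5 to 401) and 46 in MEF (5 to 344). This placed the median region at percentile 65.7 of the intermediate list and 73.3 of the MEF list. The tallest peak of a region is ranked here among single peaks, which raises the percentile of any class. Regions open in the intermediate alone had a median percentile of 62.4, and those open in MEF alone 66.1. In the top 10% of its list were 378 kept regions (9.47%) in the intermediate and 675 (16.9%) in MEF, and 80 (2%) were in the top 10% of both. Heights in one library told little of those in the other, with a rank correlation of 0.12 over the kept regions, against 0.65 over the 17618 regions open in all 4. For scale, MEF heights had a rank correlation of -0.02 with iPSC heights at the regions these shared alone and 0.05 with ESC heights at theirs. Regions are not independent replicates, and no p is given. There were 31 regions in the top 10% of the intermediate list and below the median of the MEF list, and 90 the other way round.

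**Figure D3:**
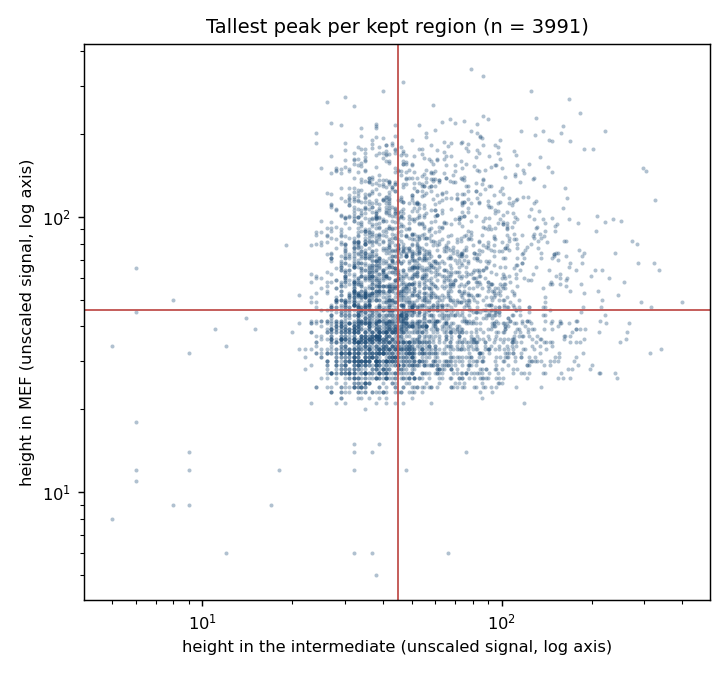
Height of the tallest peak in the intermediate (x axis) and in MEF (y axis), both unscaled and on log axes, with 1 point per kept region (3991) and red lines at the medians of 45 and 46. The points spread widely on both sides of the lines, with a rank correlation of 0.12.

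The 20 regions that ranked highest in both lists, by the lower of their 2 percentiles, had heights between 134 and 326 in the intermediate and between 115 and 269 in MEF. None lay within 1 kb of a gene end, 12 were in gene bodies, and 3 had an iPSC or ESC peak within 1 kb. The first stood 5.85 kb from Fam110a at chr2:151961231-151963550, and its peaks reached 222 in the intermediate and 206 in MEF, with summits 15 bp apart. All 20 were thus distal, as were 84.8% of all kept regions. The region ranked 21, at Ngef, lay at a gene end, with 130 in the intermediate and 228 in MEF. Trabd2b, a protease that inactivates Wnt proteins, had a region in its body at chr4:114601151-114602490 with 305 in the intermediate and 147 in MEF. Lrrc8d, a subunit of a volume-regulated anion channel, had 158 in the intermediate and 201 in MEF at chr5:105779161-105780490. Both lay in the gene body, over 1 kb from its ends. Fmn1, a formin that nucleates actin filaments, had 138 in the intermediate and 205 in MEF, and Syne3, which ties the nuclear envelope to the cytoskeleton, 143 in the intermediate and 152 in MEF. Ank2, an ankyrin linking membrane proteins to the cytoskeleton, had 148 in the intermediate and 188 in MEF. Ripor2, an inhibitor of RhoA, had 188 in the intermediate and 176 in MEF with summits 605 bp apart. Others in the 20 were Rab27b (202 in the intermediate, 176 in MEF), Mcc (170 and 188 in that order), Cttnbp2nl (168 and 269), Psd3 (160 and 214), Nbea (147 and 145), Sp8 (144 and 191), Plxdc2 (163 and 127), Sap30bp (139 and 129), Spty2d1 (134 and 165), Mbp (166 and 117), a site 1.2 kb from Olfr543 (326 and 115) and 2 sites with no gene within 100 kb (183 and 238, and 297 and 151). The site near Olfr543 was the tallest of the 20 in the intermediate list, and the one near Cttnbp2nl the tallest in the MEF list. The single tallest kept peak of the intermediate list, 401 against 49 in MEF, lay in Adamts7, a secreted metalloproteinase, and that of the MEF list, 344 in MEF with 79 in the intermediate, lay 2.23 kb from Klk10, a kallikrein protease.

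Genes were assigned as the nearest protein-coding gene within 100 kb. Kept regions fell to 2748 of 20665 genes, with 1 region at 2112 of them and 299 regions with no gene in reach. The most regions, 8 each, went to Aopep, an aminopeptidase, and Zbtb7c, a zinc finger factor. At Aopep, 8 of 24 MEF regions closed in iPSC and ESC were kept, and at Zbtb7c 8 of 19, against 8.48% over all such regions. Genes chosen for many kept regions tend to have high shares, so the shares here are a description only. Another 9 genes had 6, of which 8 are given. Cd9, a tetraspanin of the cell surface, kept 6 of 7, Itpr1, a calcium release channel, 6 of 16, and Lekr1 6 of 14. The share was lower at Lpp, a zyxin-family adhesion protein, with 6 of 42 and at the Arf regulator Agap1 with 6 of 29. Nfatc2, a calcium-dependent transcription factor, and Cmip each kept 6 of 22, and Galnt2, which starts O-linked glycosylation, 6 of 21. At Cd9 the heights ran between 28 and 213 in the intermediate and between 24 and 49 in MEF. Long genes offer more sites, so a count of regions per gene is not a rate.

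Kept regions near genes of 21 lists were set against the 8.48% over all MEF regions closed in iPSC and ESC. That background pools all widths and distances, including regions with no gene within 100 kb. The kept share was 12.9% within 1 kb of a start site and 5.03% beyond 100 kb, and it rose with width. Lists were not matched to the background for distance or width, and the part of these in the list shares was not tested. Within a list, regions other than the first by the lower percentile and those of its leading gene were chosen for mention after their values were seen. Hippo pathway genes and targets held 21 of 77 (27.3%, 18.6 to 38.1), at 8 of 15 genes. Its share was above that of all regions in 11 of 11 processing settings, at 13.5% to 29.2%. The settings reprocess the same 4 peak lists, and this result was common. Among others, the AP-1, endothelial, Hox and muscle lists were also above in 11 of 11. Of the 3991 kept regions, 21 lay at Hippo pathway genes and targets. So did 2 of the 2264 regions shared by MEF and iPSC alone and 7 of the 2186 shared by MEF and ESC alone. Of the 24663 regions open in the intermediate alone, 38 did. Tead1, a factor that recruits YAP to DNA, had 4, of which 3 lay within 14.8 kb. Vgll4, a cofactor that competes with YAP for TEAD, also had 4, as did Amotl2, an angiomotin that holds YAP in the cytoplasm. Lats2, the kinase that inactivates YAP, and Vgll3, another TEAD cofactor, had 3 each. In Lats2 the regions were chr14:57729381-57730940 where peaks reached 71 in the intermediate and 68 in MEF, chr14:57706531-57708010 with 61 and 62 in that order, and chr14:57709021-57709790 with 26 and 42. The first 2 stood above the median of either list, and the last above that of the MEF list alone. Vgll3 had 38 in the intermediate and 214 in MEF in its body at chr16:65818401-65819560, far above the MEF median of 30 and just above the 34 of the intermediate. Ankrd1, a YAP target, had its region 87.4 kb away at chr19:36207281-36208830 with 103 in the intermediate and 140 in MEF. Tead3 had 56 in the intermediate and 38 in MEF at a gene end, and the target Ccn1 6 in the intermediate and 45 in MEF.

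Adhesion and actin genes held 44 of 301 (14.6%, 11.1 to 19.1), at 19 of 25 genes. That share was above the one over all regions in 11 of 11 settings, between 7.14% and 15.6%. These genes had 44 of the 3991 kept regions, 18 of the 2264 that MEF shared with iPSC alone and 14 of the 2186 with ESC alone. Of the 24663 regions open in the intermediate alone, they had 73. Lpp had the most, with 6, at heights of 25 to 77 in the intermediate and 29 to 125 in MEF. By the lower of its 2 percentiles the first was in Cald1, a regulator of actomyosin, at chr6:34721351-34723170 with 99 in the intermediate and 98 in MEF. Actn1, an actin crosslinker, had 145 in the intermediate and 57 in MEF at chr12:80233571-80235060. Myosin heavy chain gene Myh9 had 65 in the intermediate and 138 in MEF, and the integrin Itgav also had 65 in the intermediate, with 123 in MEF. Zyx, a focal adhesion protein, had 240 in the intermediate and 27 in MEF at chr6:42356591-42358470. Over the 44 regions the median height was 43.5 in the intermediate and 57 in MEF.

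Receptor tyrosine kinases and their feedback genes held 20 of 149 (13.4%, 8.86 to 19.8), at 10 of 22 genes. Igf1r, the receptor of insulin-like growth factor 1, had 5 regions at heights of 31 to 53 in the intermediate and 27 to 90 in MEF. Egfr, the epidermal growth factor receptor, had 3, at 68, 37 and 32 in the intermediate and 38, 51 and 53 in MEF. Dusp5, a phosphatase that acts on ERK, was ranked first on the list with 61 in the intermediate and 55 in MEF. The AP-1 and Maf factor list held 7 of 65 (10.8%, 5.32 to 20.6). Fosl2 lay 32.8 kb from a region with 76 in the intermediate and 156 in MEF, Jun 29.1 kb from one with 46 in the intermediate and 39 in MEF, and Fos had 2. Inflammatory and NF-kB genes held 11 of 107 (10.3%, 5.84 to 17.5), close to the 8.48% of all. Tnfaip3, an inhibitor of NF-kB, had 123 in the intermediate and 118 in MEF. A region at an end of Il6, an inflammatory cytokine, had 29 in the intermediate and 86 in MEF.

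Fibroblast and mesenchymal genes held 12 of 217 (5.53%, 3.19 to 9.42), at 8 of 32 genes, and the interval includes the 8.48% of all regions. Across 11 settings the share ran between 2.8% and 7.25%, and it was above that of all regions in 0 of them. Where peaks were joined only if they shared a base, its interval (1.64 to 4.72) lay below the 5.11% of all regions. Fbn1, which makes fibrillin of elastic microfibrils, had 4 of the 12. The first by the lower percentile was assigned to Thy1, a surface protein of fibroblasts, 60.2 kb away at chr9:43982001-43983200, with 133 in the intermediate and 105 in MEF. Dcn, a proteoglycan, had 66 in the intermediate and 59 in MEF, and the collagen genes Col6a1 (2 regions), Col5a1 and Col6a3 had heights of 34 to 45 in the intermediate and 32 to 64 in MEF. TGF-beta genes held 10 of 155 (6.45%, 3.54 to 11.5). Acvr1, a receptor of bone morphogenetic proteins, had 128 in the intermediate and 138 in MEF at chr2:58483531-58485130, and the inhibitor Smad7 had 128 in the intermediate and 98 in MEF. Smad3, a signal transducer, had 41 in the intermediate and 76 in MEF.

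Markers of other cell types also had kept regions, from small numbers of MEF sites. Simple epithelium held 8 of 23 (34.8%, 18.8 to 55.1), all at Cdh1 (3), Cldn4 (3), Krt18 and Ocln. Cldn4, a claudin of tight junctions, had 112 in the intermediate and 115 in MEF at chr5:134958701-134959880, 11.8 kb from the gene. Cdh1, the epithelial cadherin, had 46, 61 and 27 in the intermediate and 44, 24 and 44 in MEF at its 3 regions. Muscle genes held 6 of 17 (35.3%, 17.3 to 58.7), with 3 at Pax7, and trophoblast genes 4 of 13 (30.8%), with 3 at Gata3. Endothelial genes had 5 of 39 and myeloid genes 2 of 16. Housekeeping genes held 6 of 21 (28.6%, 13.8 to 50), as high a share as several marker lists and as the 27.3% of the Hippo list. Their share was also above that of all regions in 11 of 11 settings. Basal keratinocyte genes had 3 of 33, adipocyte factors 5 of 37, with 4 at Cebpb, and cell cycle arrest genes 4 of 19. Hox genes, which set position along the body axis, had 6 of 34 (17.6%), each at a different gene, and Runx genes and Cbfb 5 of 58. By the lower of the 2 percentiles, the first of the muscle, Runx and Hox lists were at Tnnt2, a cardiac troponin (154 in the intermediate, 70 in MEF), the blood and bone factor Runx1 (61 in the intermediate, 102 in MEF) and Hoxa3 (55 in the intermediate, 71 in MEF). Pluripotency genes had 3 of 49 (6.12%), at Fbxo15, Klf2 and Nr5a2. Neural and neuroectoderm genes had 0 of 35, which allows a share of up to 8.57%, and mesoderm and endoderm genes 0 of 40, which allows up to 7.5%. Their Wilson intervals reach to 9.89% and 8.76%, and so include the 8.48% of all regions. What these other cell types add to the regions was not tested.

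**Figure D4:**
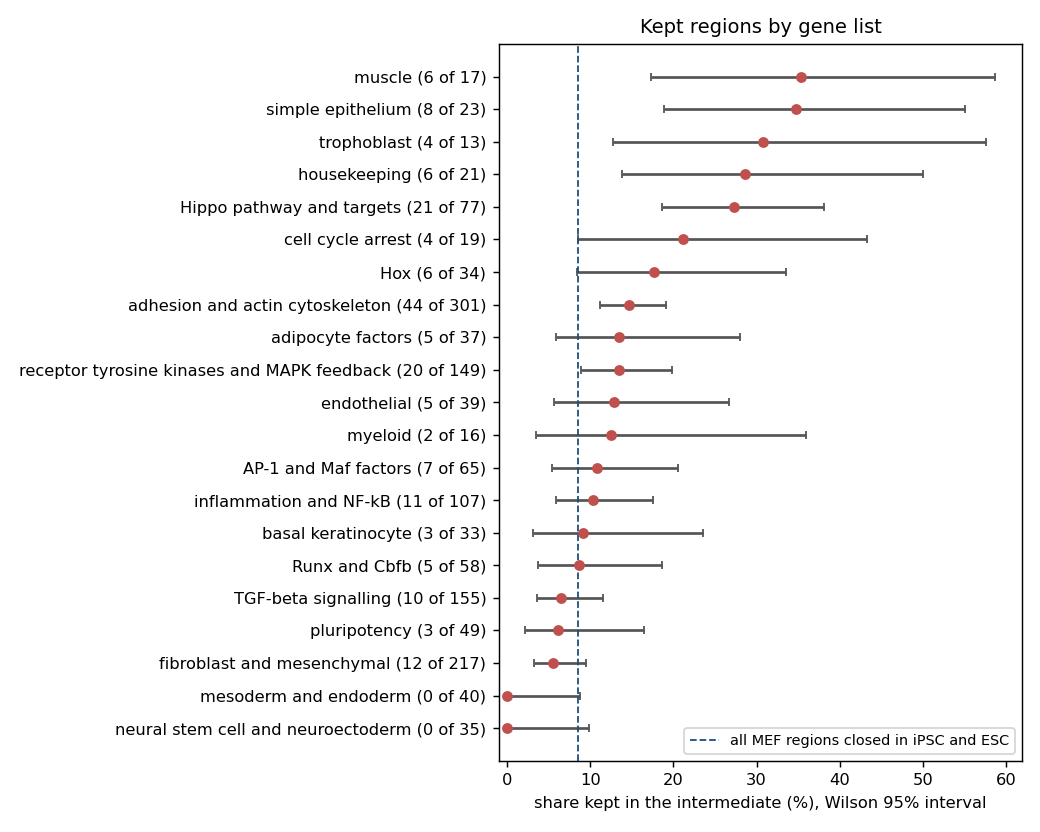
Share of MEF regions closed in iPSC and ESC that were open in the intermediate (x axis, %, with Wilson 95% intervals), by list of the nearest gene (y axis, with kept regions of all such regions in brackets). The dashed line marks 8.48%, the share over all regions, which is not matched to the lists for distance or width. The interval of the Hippo list (18.6 to 38.1) lies above it, as does that of the housekeeping list (13.8 to 50). So do those of the simple epithelium, muscle, trophoblast, adhesion, receptor tyrosine kinase and cell cycle arrest lists. That of the fibroblast list (3.19 to 9.42) crosses it.

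Some kept regions lay near each other. Another kept region stood within 10 kb of 14.8% of them (13.8 to 16), while 7.7% of regions open in MEF alone had a kept region that near, 6.71% of those shared by MEF and iPSC only and 7.5% of those shared by MEF and ESC only. Some such neighbours nearly adjoin, as at Smad7 (chr18:75384761-75386970 and chr18:75386991-75388040), and count as separate regions under the 10 bp rule. How often regions of another class lie near their own class was not measured. A region open in the intermediate alone was within 10 kb of 36.7% of kept regions, against 21.8% of regions open in MEF alone. An iPSC or ESC peak was also counted within 10 kb of more kept regions, 70.1% against 59.6% of regions open in MEF alone. This count differs slightly from the distances given below, by which 30.4% of kept regions lay over 10 kb from such a peak. Closeness was thus not limited to chromatin of the intermediate. In all, 166 kept regions (4.16%) stood in 53 runs of 3 or more, with neighbours little over 10 kb apart at most. That share became 7.1% where peaks were joined only if they shared a base and 2.24% with the taller 50% of the MEF and intermediate lists, and it was not set against other classes. Around Btg2, an antiproliferative gene, 5 kept regions lay over 37.4 kb, 4 of them nearest to Btg2, and those 4 were all of its MEF regions closed in iPSC and ESC. Capn2, a calcium-activated protease, had 4 over 18.2 kb with heights of 85, 76, 54 and 29 in the intermediate and 195, 76, 27 and 88 in MEF. The gene for the hyaluronan receptor Cd44 had 3 over 11.9 kb, at 32.4 to 41.7 kb from the gene, with 47, 36 and 96 in the intermediate and 310, 39 and 31 in MEF. The 3 regions of S100a10, a partner of annexin A2, had 78, 35 and 30 in the intermediate and 47, 121 and 72 in MEF. Cd44, Capn2 and S100a10 were chosen after their values were seen.

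The distance to pluripotent chromatin was not fixed by the rule beyond 10 bp. The nearest iPSC or ESC peak lay a median of 4980 bp away (quartiles 1890 and 12100 bp), within 1 kb of 575 kept regions (14.4%) and over 10 kb from 1213 (30.4%). A pluripotent peak stood within 50 bp of 17 kept regions, at 11 to 41 bp, and these had median heights of 35 in the intermediate and 42 in MEF. Just outside the rule were 4 regions whose pluripotent peak touched neither of the other peaks, with medians of 34 in the intermediate and 70.5 in MEF. These 4 were among 2831 regions left out because 1 of the iPSC and ESC lists held a peak. The medians of the 2831 were 47 in the intermediate and 48 in MEF.

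Some kept regions covered or adjoined microRNA genes, whose short RNAs silence transcripts that match their seed (bases 2 to 8, in capitals). RefSeq (GRCm38.p6) places the hairpins of Mir106b, Mir93 and Mir25 inside the kept region chr5:138164881-138166340, with a peak of 28 in the intermediate and 65 in MEF. The hairpin of Mir21a lies 617 bp from the kept region chr11:86578741-86583450, with 50 in the intermediate and 83 in MEF. miR-93 and miR-106b share the seed AAAGUGC, and miR-25 and miR-21a have different ones, as the mature sequences show. Both regions were chosen after their values were seen.
mmu-miR-93-5p: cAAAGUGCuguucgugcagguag
mmu-miR-106b-5p: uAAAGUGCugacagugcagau
mmu-miR-25-3p: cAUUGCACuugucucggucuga
mmu-miR-21a-5p: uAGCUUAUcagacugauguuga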

How the data were processed

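Open chromatin was compared in 4 ATAC-seq libraries, 1 per group. Coordinates are those of mm10, and MACS 1.4.2-1, Bowtie2, CASAVA 1.8.2 and Picard were used upstream in roles not given, per the submitters' processing notes. Peak lists deposited by the authors hold start, end, summit and height, per the file headers. The deposited height is a whole-number signal, with a minimum of 5, that nothing in the files scales to library size, and the summit position is another deposited coordinate. Depth is unknown.

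From these lists, peaks were pooled on chromosomes 1 to 19 and joined at most 10 bp apart, since neighbouring peaks in one list often lay 10 bp apart. Gene ends came from a RefSeq table of GRCm38.p6 without strand, and all 343 listed genes matched, with 4 on the X chromosome left out. Start sites and upstream bases came from RefSeq promoters, which had none for chromosome 18. With 1 library per group no test was run, and Wilson 95% intervals cover counting error over regions only; neighbouring regions are not independent. The named regions were the 20 with the highest lower of 2 within-list percentiles, the genes with the most kept regions, ties included, and for each list its first region by the same percentile and its leading gene; some of these are not reported here. Members and lists were chosen with earlier results of these data known. Motifs around summits need a genome sequence and were not analysed here, so windows before start sites took their place, a choice made after seeing the files. The sequences printed at summits were replaced in the same way. Merging and distances were checked on simulated peaks. Python 3.11.15, numpy 2.4.6, scipy 1.17.1, pandas 2.3.3 and matplotlib 3.10.9 were used.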

Additional observations from a re-analysis of the deposited data

Results flagged for a closer look

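The X chromosome was outside the comparison. On it, 48 regions were open in the intermediate and MEF and closed in iPSC and ESC, out of 679 MEF regions closed in iPSC and ESC (7.07%, Wilson 95% interval 5.37 to 9.25), and the interval includes the 8.48% of the autosomes. They stand here because they are a signal in data the comparison did not use.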

How the results depend on the processing

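The number of kept regions ran between 2858 and 4453 over all alternatives, against 3991, and the AP-1 share of windows between 21.7% and 27.6%, against 24.9%. Of the main values recomputed, 24 moved by more than their error, or for counts by over 1.5 times, and 59 did not. Of the shares at single gene lists 8 moved and 223 did not. All 8 fell, 7 of them where peaks were joined only if they shared a base, among them Hippo at 13.5%, adhesion at 7.14%, Hox at 6.45% and fibroblast at 2.8%; Hippo was also lower, at 18.5%, with the taller 50% of the MEF and intermediate lists. The kept share of 8.48% became 5.11% where peaks were joined only if they shared a base, 8.88% at 50 bp, 9.41% at 200 bp, 8.8% with the taller 50% of each list, 7.42% with the taller 50% of the MEF and intermediate lists only and 8.17% with no pluripotent peak within 1 kb. Joining only shared bases splits stretches at the gaps the peak lists contain. The distal share of 84.8% became 83.6% with the taller 50% of each list, 86% with no pluripotent peak within 1 kb, 80% with 500 bp windows and 73.4% with a gene-end window of 2.5 kb, which counts more regions as near an end. The median heights of 45 in the intermediate and 46 in MEF became 43 in both where bases had to be shared and with 500 bp windows, and 51 in the intermediate and 52 in MEF with either choice of the taller 50%. The share of regions in runs, 4.16%, became 7.1% where bases had to be shared, 3.27% at 200 bp, 3.01% and 2.24% with the 2 choices of the taller 50%, 2.99% with no pluripotent peak within 1 kb and 5.91% with 500 bp windows. For the remaining moves the cause was not tested. Regions at the gene lists numbered 125 to 198, against 182, and 146 when assigned within 20 kb. The planned motif search around summits was not run. No paired analysis was possible because each group has 1 library and no result comes from a test. Depth behind the lists is unknown, so a region called closed may be open below the level at which a peak was listed.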

Other observations

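Kept regions also covered the start sites of interferon-related genes, which were picked after their values were seen and are no test of that group. The start of Irf7, a transcription factor of the interferon response, lay in a kept region whose peaks reached 71 in the intermediate and 73 in MEF. At Isg20, an antiviral exonuclease, the heights were 60 in the intermediate and 69 in MEF, and at Oas1a, an enzyme that senses double-stranded RNA, 44 in the intermediate and 79 in MEF. The start of Trim12a had 46 in the intermediate and 142 in MEF. In all, 252 genes, 145 of them protein-coding, had a start within 1 kb of a kept region.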
